A study of Arabidopsis thaliana with 4 samples.

Results

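ICL and PPDK encode enzymes with which a plant recovers carbon from its own reserves, and their transcripts were followed in whole seedlings of *Arabidopsis thaliana* of the mutant ref6-1 and of its wild type Col. Both were taken by name, as the probe sets 257947_at for ICL (locus AT3G21720) and 245528_at for PPDK (locus AT4G15530), so they are 2 of the 13286 genes that the annotation names singly, and 2 probe sets of the 22746 tested on the Affymetrix ATH1 array. They were chosen by their log2 difference between the genotypes in these same 4 arrays, ICL for a high and PPDK for a low one. Their own values are therefore a description, and no test is given for them. The mutant group was ref6-1 in the Col background, and the wild-type group was Col itself. REF6, also called JMJ12, removes repressive methyl groups from lysine 27 of histone H3. Seedlings of both groups stood on plates of MS nutrient medium for 10 days at 23 °C, in 16 h of light and 8 h of darkness, without any further treatment. Each genotype had 2 arrays. The labels call them biological replicates without saying how many seedlings made up each. The limma p-values set a difference against the spread between these RNA samples, part of it borrowed from other probe sets. No probe set carries the name REF6 in the annotation used, so the genotype was not checked through its own transcript here.

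Isocitrate lyase, the product of ICL, splits isocitrate into succinate and glyoxylate. With malate synthase it forms the glyoxylate cycle, which bypasses the carbon-losing steps of the citric acid cycle and so lets a seedling turn stored oil into sugar. Its transcript is known for its abundance in the days after germination, before photosynthesis takes over, and it reappears in starved and senescing tissue. Pyruvate orthophosphate dikinase, the product of PPDK, makes phosphoenolpyruvate from pyruvate. In Arabidopsis it serves the synthesis of sugar from amino acids in germinating seedlings and the export of nitrogen from ageing leaves, and one gene gives both a plastid and a cytosolic form.

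The 2 transcripts lay on opposite sides of wild type. ICL was higher in ref6-1, at a ratio of mean intensities of 2.18, and PPDK was lower, at a ratio of 0.680. ICL read 226 and 305 on the ref6-1 arrays, against 116 and 129 on the Col arrays. Both ref6-1 arrays stood above both Col arrays, and the upper ref6-1 array was well apart from the lower one. The means were 266 ± 55.8 in ref6-1 and 122 ± 9.23 in Col (SD, n = 2 each). On the scale of log2(intensity + 16) the difference was 1.02 (limma SE 0.137). A limma SE borrows spread from other probe sets, and the pooled SD of ICL itself within genotypes was 0.215 log2. The difference ranked 27th from the top among all probe sets, a description of how the gene came to be chosen.

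PPDK read 548 and 543 on the ref6-1 arrays, against 779.9 and 823 on the Col arrays. The ref6-1 arrays nearly coincided and both stood below both Col arrays. The means were 545 ± 3.52 in ref6-1 and 802 ± 30.8 in Col (SD, n = 2 each). The log2 difference was -0.54 (limma SE 0.0946), the 176th from the bottom. The pooled SD of PPDK itself within genotypes was 0.039 log2. RefSeq (assembly TAIR10.1) lists 7 transcripts for PPDK and 1 for ICL. The sources used do not say which of the 7 the probe set reads, so plastid and cytosolic forms are not separated. In whole seedlings, fewer cells that make a transcript and less of it per cell cannot be told apart.

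**Figure D1:**
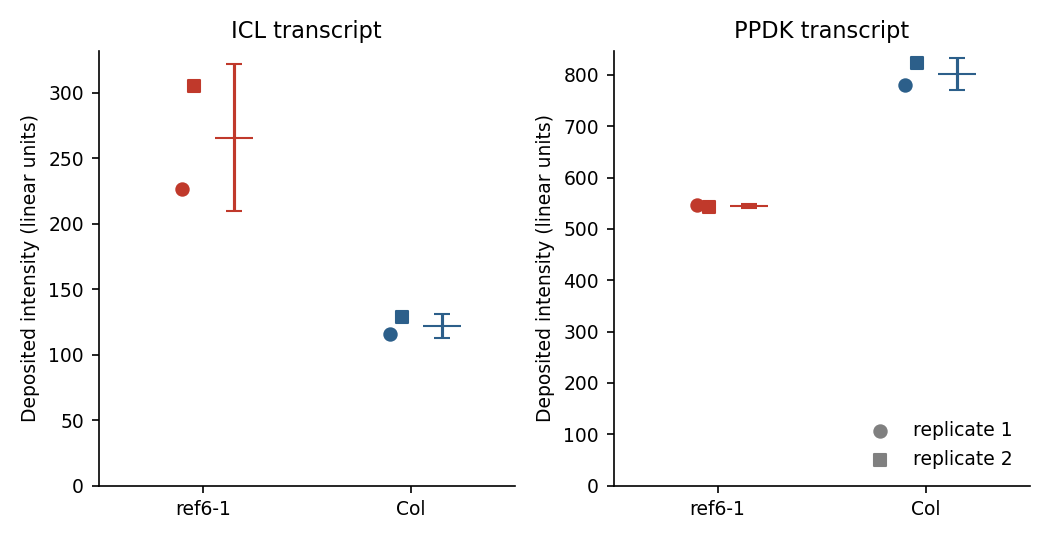
Deposited intensity (linear units) of ICL and PPDK on each array, ref6-1 left of Col, with a dash and bar for mean ± SD (n = 2 each). ICL lies at 226 and 305 in ref6-1 against 116 and 129 in Col, and PPDK at 548 and 543 in ref6-1 against 779.9 and 823 in Col.

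The genotypes did not overlap for either gene. Over all probe sets this was so for 35.6%, with both ref6-1 arrays above in 16.1% and below in 19.5%, and nothing is read from it here because the genes were taken for their difference. The size of the ICL difference depended on which arrays were compared. Between single arrays the log2 difference ran from 0.74, for ref6-1 replicate 1 minus Col replicate 2, to 1.29, for ref6-1 replicate 2 minus Col replicate 1. The lowest of the 4 such ratios of intensity was 1.76 and the highest 2.64. For PPDK the same 4 comparisons gave log2 differences between -0.59 and -0.50, a much narrower band, with ratios from 0.659 to 0.702.

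The spread of ICL came mainly from ref6-1. The log2 gap between the 2 ref6-1 arrays was 0.41, and that between the Col arrays was 0.14. Among the 1000 probe sets nearest to ICL in mean log2 intensity, the median gap between the ref6-1 arrays was 0.11, and 2.7% had a gap as large as that of ICL. In Col, 39.0% of these probe sets had a gap at least as large. PPDK was closely replicated, with gaps of 0.01 in ref6-1 and 0.08 in Col, against medians of 0.12 and 0.11 for its own 1000 nearest probe sets.

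With each array left out in turn, the log2 difference of ICL was 1.22 without ref6-1 replicate 1 and 0.81 without ref6-1 replicate 2. Leaving out Col replicate 1 gave 0.95, and leaving out Col replicate 2 gave 1.08. That of PPDK was -0.55 and -0.54 without ref6-1 replicates 1 and 2, and -0.58 and -0.50 without Col replicates 1 and 2. ICL stayed above 0 and PPDK below 0 in all 4 cases, which was fixed in advance because neither gene overlapped between the genotypes. The added constant mattered more for ICL, the dimmer probe set. The ICL difference was 1.10 with a constant of 1 and 0.82 with 64, and the PPDK difference was -0.56 and -0.51.

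**Figure D2:**
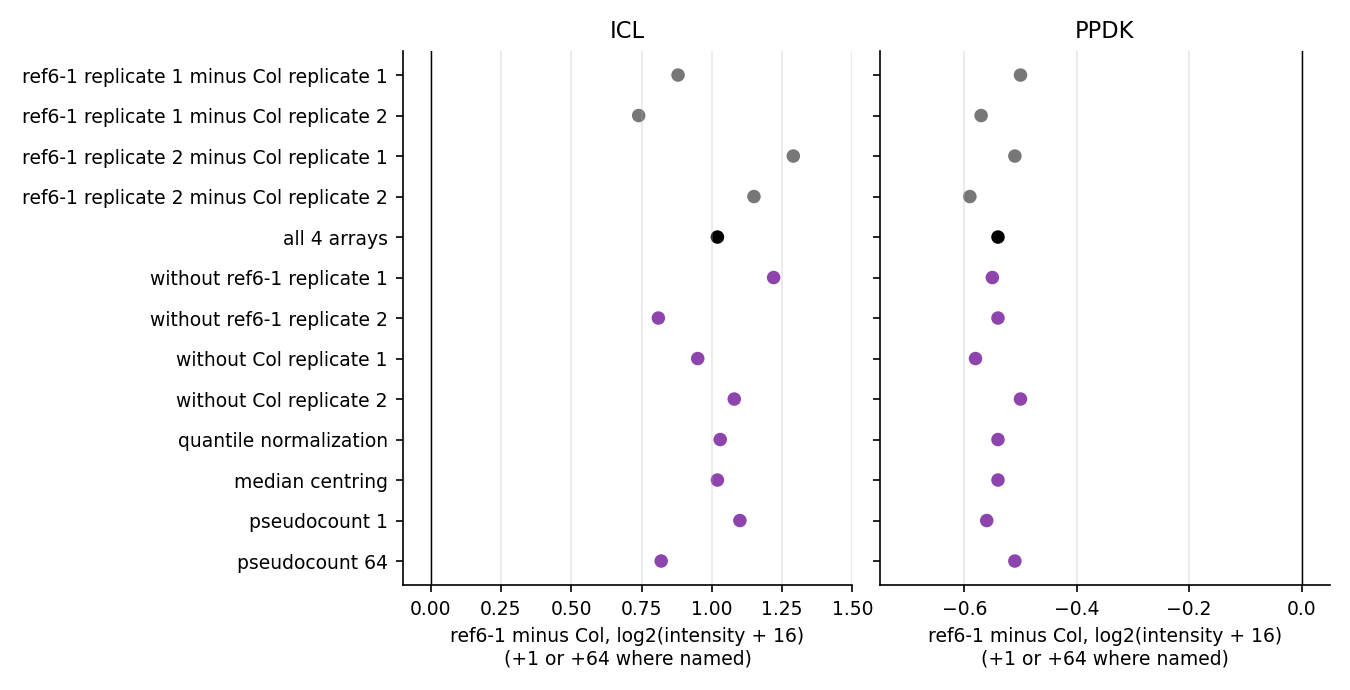
Log2 difference, ref6-1 minus Col, of ICL (left) and PPDK (right) for each pair of single arrays (grey), all 4 arrays (black) and each alternative setting (purple). The horizontal scales of the panels differ. ICL points run from 0.74 to 1.29 and PPDK points from -0.59 to -0.50.

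The other genes of the same pathways were taken from textbook lists of 147 genes, of which 23, ICL and PPDK included, could be named on the array. Of the 10 listed genes of the glyoxylate cycle ICL was the one named, so malate synthase and the peroxisomal citrate synthases and malate dehydrogenases were not analysed here. To place ICL and PPDK among more of central metabolism, 43 genes were listed from the names in the annotation, after it had been opened. SAG29, also called SWEET15, stands on both a textbook list and an added list and is not counted again. Of the resulting 63 genes other than ICL and PPDK, 0 passed an adjusted p of 0.05 in limma, in either direction. Over all probe sets 1.48% passed, 0.774% as higher and 0.708% as lower in ref6-1, so a count of 0 among 63 is near that background. At an unadjusted p under 0.05 there were 7 of the 63 (11.1%), against 8.5% of all probe sets. The genotypes did not overlap for 27 of the 63, 11 with ref6-1 above and 16 with ref6-1 below, a share of 42.9% against 35.6% of all probe sets.

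Around ICL in metabolism stand the enzymes of isocitrate and succinate, its substrate and product, and those of malate, which the glyoxylate cycle goes on to make. None of the 12 measured passed the test, and 0 had an unadjusted p under 0.05. Their median log2 difference was 0.03, against -0.02 over all probe sets, and they ran from -0.20 to 0.16. ICDH, an NADP-dependent isocitrate dehydrogenase, draws on the same substrate as ICL. It read 364 and 373 in ref6-1, against 301 and 359.5 in Col. Its ref6-1 arrays were both above the Col arrays, but by a log2 difference of 0.16 (limma adjusted p = 0.845), with a 95% interval from -0.09 to 0.40. The cytosolic form, cICDH, had 4597 and 5040 in ref6-1, against 4985 and 4871 in Col, and the genotypes overlapped.

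The NAD-dependent isocitrate dehydrogenases of the mitochondrion did not pass either. IDH-VI had a log2 difference of 0.15 (limma adjusted p = 0.812) and IDH-IV one of -0.20 (limma adjusted p = 0.763). The IDH-IV probe set was dim, with 38.5 and 41.5 in ref6-1 and 54.0 and 43.3 in Col. IDH-V and IDH-III lay at -0.03 and 0.03. The 4 succinate dehydrogenase subunits, which take up the succinate that ICL releases, and the 2 malate dehydrogenases of the plastid completed this group, with all 6 genotype pairs overlapping.

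Upstream of the glyoxylate cycle, stored oil is cut by lipases and its fatty acids are shortened in the peroxisome. Of 20 listed genes 3 were measured, and 0 passed in limma or had an unadjusted p under 0.05. SDP1, the main lipase of oil bodies, read 626 and 641 in ref6-1, against 587 and 644 in Col. AIM1, a multifunctional enzyme of fatty acid shortening, read 1002 and 1089 in ref6-1, against 1100.2 and 1079 in Col. Neither gene separated the genotypes. Their 95% intervals for the log2 difference were -0.18 to 0.26 for SDP1 and -0.28 to 0.16 for AIM1.

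Downstream of PPDK, phosphoenolpyruvate is carried back towards sugar by the reversible enzymes of glycolysis. Of 13 listed genes of this route 3 were measured, PPDK among them. ENOC, an enolase, read 475 and 567 in ref6-1, against 527 and 541 in Col, a log2 difference of -0.04 (limma adjusted p = 0.973). Its 95% interval ran from -0.28 to 0.20. GAPC2, a cytosolic glyceraldehyde-3-phosphate dehydrogenase, read 5998 and 6627 in ref6-1, against 5500.3 and 6558 in Col. Its log2 difference was 0.07 (limma adjusted p = 0.949), with a 95% interval from -0.19 to 0.33. Both overlapped between the genotypes. The 5 added genes of triose phosphate and pyruvate also had 0 calls in limma and 0 unadjusted p under 0.05, a median of 0.02, and a range of -0.06 to 0.12. Among these PGM, a phosphoglycerate mutase-like gene, was at 0.12 and PDC2, a pyruvate decarboxylase, at 0.07. The 15 listed genes of phosphoenolpyruvate and pyruvate use and the 10 of nitrogen remobilisation had no named probe set and were not analysed here.

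**Figure D3:**
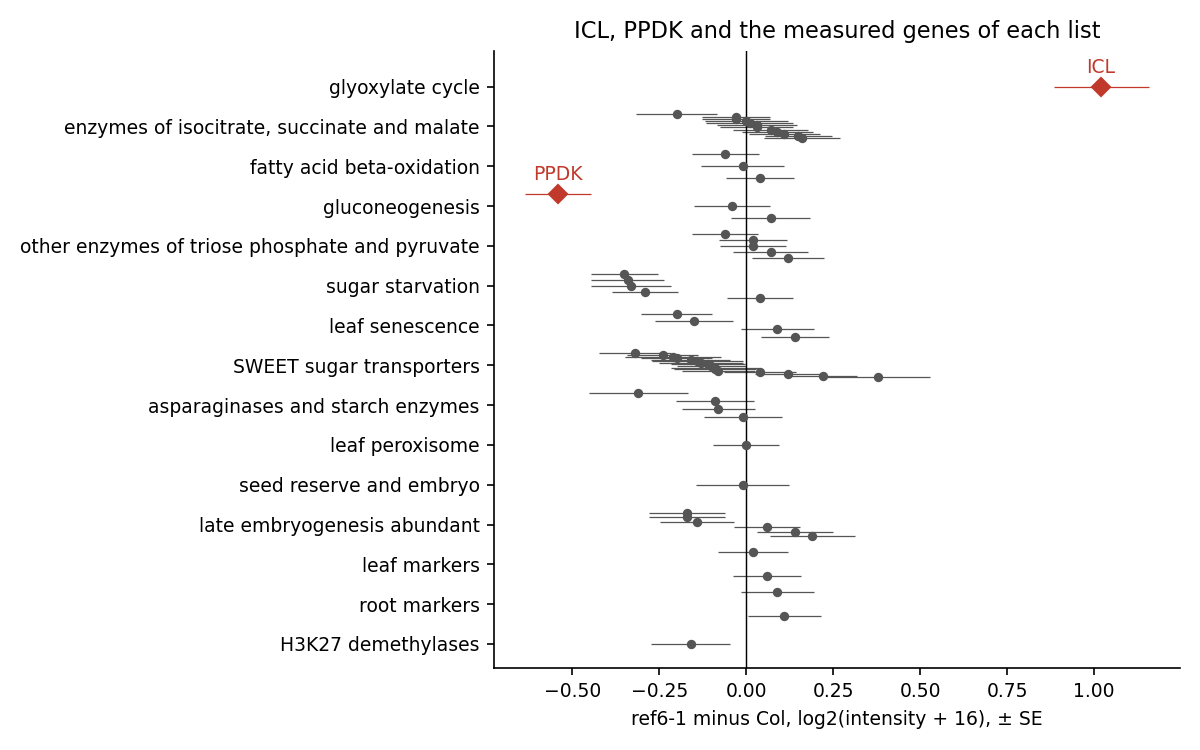
Log2 difference, ref6-1 minus Col, with its limma SE, of ICL and PPDK (red diamonds) and the measured genes of each list (grey), on the scale of log2(intensity + 16). ICL is at 1.02 and PPDK at -0.54, and the 63 other genes lie between -0.35 and 0.38.

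Genes known to rise when sugar runs short included the lowest log2 differences among the lists, those of IVD, MCCB and MCCA. SWEET1 and ASPGB1, of other lists, were close at -0.32 and -0.31. Of 5 measured genes of the 13 listed for sugar shortage, 4 lay lower in ref6-1 on both arrays. The log2 differences of these 4 ran from -0.35 to -0.29. Over all probe sets 19.5% lay lower in this way. These 4 belong to the mitochondrial breakdown of leucine and related amino acids, and none passed over all probe sets. All 4 had an unadjusted p under 0.05, as 8.5% of all probe sets did, and are named in full for that reason. They were singled out after their values had been seen.

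IVD, the isovaleryl-CoA dehydrogenase, read 1265 and 1299.6 in ref6-1, against 1562 and 1708 in Col. Its log2 difference was -0.35 (limma SE 0.0973, adjusted p = 0.182). MCCB, a subunit of methylcrotonyl-CoA carboxylase, the next enzyme of that route, read 1614 and 1775 in ref6-1, against 2025 and 2286 in Col, a log2 difference of -0.34 (limma adjusted p = 0.246). For both genes the 2 ref6-1 arrays stayed below the lower Col array. MCCA, the other subunit, read 1668 and 2001 in ref6-1, against 2183 and 2422 in Col, at -0.33 (limma adjusted p = 0.361). ETFQO, which passes the electrons of such dehydrogenases to the respiratory chain, read 501 and 513 in ref6-1, against 608 and 635 in Col, at -0.29 (limma adjusted p = 0.313). The transcription factor gene bZIP53, the fifth of the list, overlapped between the genotypes at 0.04. PPDK and the 4 leucine genes were all lower on both ref6-1 arrays. PPDK was chosen, and these 4 singled out, by their values in these arrays, so their common direction is no separate result. PPDK had the greater log2 difference, and the difference between it and them was not tested. ICL, also known from starved tissue, was higher in ref6-1.

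**Figure D4:**
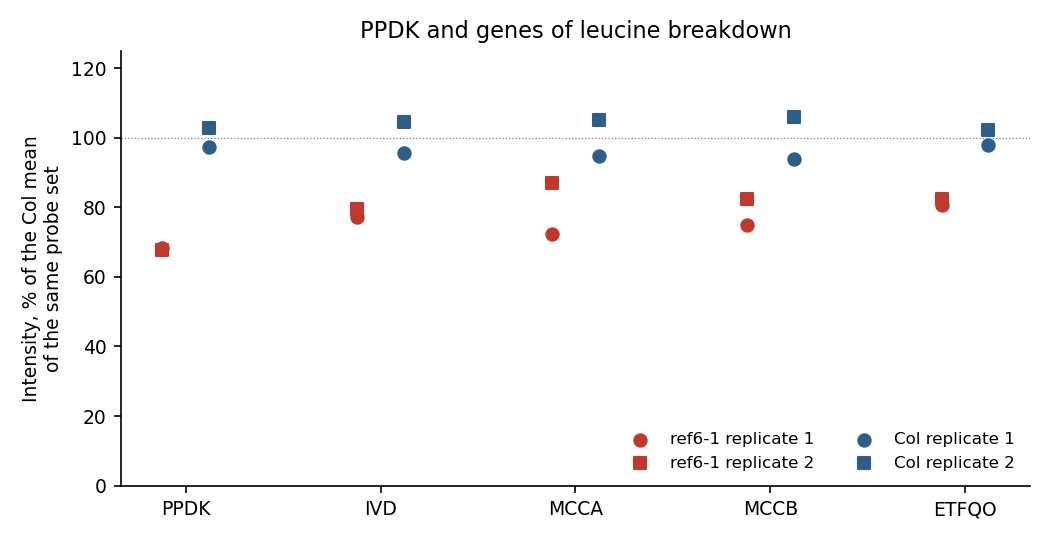
Intensity of PPDK, IVD, MCCA, MCCB and ETFQO on each array as a percentage of the Col mean of the same probe set, ref6-1 (red) left of Col (blue). For each of the 5 genes, picked with these values known, both ref6-1 points lie below both Col points.

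Markers of leaf senescence were listed because both ICL and PPDK are known to take part in it. Of 18 listed genes 4 were measured, and 0 passed in limma or had an unadjusted p under 0.05. SAG29, a sugar transporter gene of the SWEET family that is strongly induced in old leaves, read 169 and 178.5 in ref6-1, against 213 and 191 in Col, at -0.20 (limma adjusted p = 0.694). WRKY6, a senescence-associated transcription factor gene, read 179.6 and 189.8 in ref6-1, against 165 and 167 in Col, at 0.14 (limma adjusted p = 0.845). SAG29 was lower and WRKY6 higher on both ref6-1 arrays, and WRKY53 and SAG101 overlapped. Over all probe sets 19.5% lay lower and 16.1% higher in this way, so no common direction is read from these genes.

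Sugar export and storage were read through 16 SWEET transporters, SAG29 among them, and through 4 genes of asparagine and starch breakdown or starch branching. None passed in limma, and 3 of the 16 SWEET genes had an unadjusted p under 0.05, against 8.5% of all probe sets. The median of the SWEET genes was -0.11, with 12 of 16 below 0. Over all probe sets the median was -0.02, with 12827 of 22746 below 0. SWEET17, a vacuolar fructose transporter gene, had the highest value of any list gene. It read 1096 and 774 in ref6-1, against 668 and 741 in Col, a log2 difference of 0.38 (limma adjusted p = 0.462). ref6-1 replicate 1 carried most of this. The difference was 0.13 without it (limma adjusted p = 0.921) and 0.63 without ref6-1 replicate 2 (limma adjusted p = 0.0125), where the lone ref6-1 array is assumed to vary like the Col arrays. SWEET1, a glucose transporter gene, lay at -0.32 (limma adjusted p = 0.313) and SWEET2 at -0.24 (limma adjusted p = 0.557). ASPGB1, an asparaginase gene, read 101 and 96.5 in ref6-1, against 151 and 106 in Col. Col replicate 1 stood apart from the other 3 arrays. The log2 difference was -0.31 (limma adjusted p = 0.597), and it was -0.09 without Col replicate 1 (limma adjusted p = 1). It was -0.54 when Col replicate 2 was left out (limma adjusted p = 0.0245), with the lone Col array assumed to vary like the ref6-1 arrays. AMY1, an alpha-amylase gene, was at -0.09.

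ICL is most abundant in young seedlings that still hold reserves, so genes of seed tissue were set beside it. OLEO3, an oil-body oleosin gene, read 117 and 113 in ref6-1, against 136 and 99.0 in Col, with the genotypes overlapping (limma adjusted p = 0.993). It was the one measured of 19 listed seed genes. Of 6 late embryogenesis abundant genes 3 lay higher and 3 lower on both ref6-1 arrays, against 16.1% above and 19.5% below over all probe sets. They ran from -0.17 for LEA4-1 to 0.19 for LEA27, both with a limma adjusted p of 0.811, and 0 of the 6 had an unadjusted p under 0.05. HPR, the hydroxypyruvate reductase of leaf peroxisomes, which replace the seedling type as cotyledons turn green, read 6765 and 6989 in ref6-1, against 6710.1 and 7051 in Col.

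The balance of organs was read through 2 of 8 listed leaf markers and 2 of 7 listed root markers, the ones measured. So few markers cover it only in part. RCA and LHCB4.1, which encode Rubisco activase and a chlorophyll-binding protein, had a summed intensity of 25438 and 26249.6 in ref6-1, against 24584 and 25757 in Col. EXPA7 and EXPA18, expansin genes of root hairs, had sums of 315 and 316.5 in ref6-1, against 308 and 277 in Col. Both root markers were slightly above 0, at log2 differences of 0.11 and 0.09, and both leaf markers near 0, at 0.06 and 0.02. With RCA at -0.01 after quantile normalization, its direction is not settled. None passed in limma, 0 had an unadjusted p under 0.05, and their part in the ICL and PPDK differences was not tested. JMJ32, the only listed demethylase of lysine 27 of histone H3 analysed, read 69.1 and 66.5 in ref6-1, against 85.6 and 70.8 in Col (limma adjusted p = 0.837). JMJ13, another of these, had a probe set but was left out because its symbol and locus disagreed.

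The genes next to ICL and PPDK on their chromosomes were taken by position alone, the nearest 2 measured loci on each side in the TAIR10.1 gene order. Around ICL the log2 differences were 0.18 and 0.00 on one side, for AT3G21690 and SGP2, and 0.13 and 0.29 on the other, for UGT71B1 and AT3G21770. None passed in limma, and AT3G21770, with 4 protein-coding loci between it and ICL, had an unadjusted p of 0.0137 (limma adjusted p = 0.321). All 4 were below the 1.02 of ICL itself, which was chosen for its high difference, so nothing is read from that.

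Around PPDK, UGT84A4 was at 0.20, AT4G15520 at -0.09 and AT4G15545 at -0.09. IAGLU, which encodes a glucosyltransferase of the auxin indole-3-acetic acid, lies beyond AT4G15545, with 2 protein-coding loci between it and PPDK. It read 318 and 366 in ref6-1, against 477 and 487 in Col, with no overlap. Its log2 difference was -0.48 (limma SE 0.104), with an adjusted p of 0.0617, which did not pass. With 1 array left out it lay at -0.38 without ref6-1 replicate 1 (limma adjusted p = 0.222), -0.49 without Col replicate 1 (limma adjusted p = 0.141), or -0.46 without Col replicate 2 (limma adjusted p = 0.106). It passed without ref6-1 replicate 2, at -0.58 (limma adjusted p = 0.0255), with the spread of the lone ref6-1 array again taken from Col. AT4G15520, which has 0 protein-coding loci between it and PPDK, overlapped between the genotypes.

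The transcripts nearest in pattern to each gene were ranked among 13512 probe sets with a single named gene, by the Euclidean distance between their 4 centred log2 values. With 4 arrays such a distance mostly finds genes with a like difference between genotypes, so their differences are no separate result. Nearest to ICL were AT5G35735 at a distance of 0.231, AT1G18740 at 0.277, AT2G34930 at 0.313, AT1G19320 at 0.320 and OPCL1 at 0.343. AT5G35735 read 866 and 977 in ref6-1, against 465 and 534 in Col. OPCL1, which encodes a peroxisomal ligase of jasmonate synthesis, read 529.9 and 646 in ref6-1, against 331 and 384 in Col. Like AT5G35735, AT1G18740 and AT1G19320, OPCL1 shares with ICL the higher value on ref6-1 replicate 2, and its log2 difference was 0.69.

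Nearest to PPDK were AT5G11610 at a distance of 0.00656, AT4G01390 at 0.0316, AT4G18970 at 0.0713, AT4G36470 at 0.0755 and AT1G64370 at 0.0910. These distances are smaller than those around ICL. The distance is not scaled to the size of a gene's difference, and ICL was chosen with a larger one. Closeness is therefore not compared between ICL and PPDK. AT5G11610 read 43.4 and 43.0 in ref6-1, against 68.4 and 72.6 in Col. AT4G18970 read 581 and 553 in ref6-1, against 838 and 897 in Col. The log2 differences of the 5 ran from -0.60 to -0.48, on both sides of the -0.54 of PPDK. With constants of 1 and 64, the dim AT5G11610 was at -0.69 and -0.33, against -0.56 and -0.51 for PPDK. AT4G01390 (-0.61 and -0.42) and AT4G36470 (-0.54 and -0.36) also moved, and AT4G18970 and AT1G64370 did so little. Distances at other constants were not computed.

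**Figure D5:**
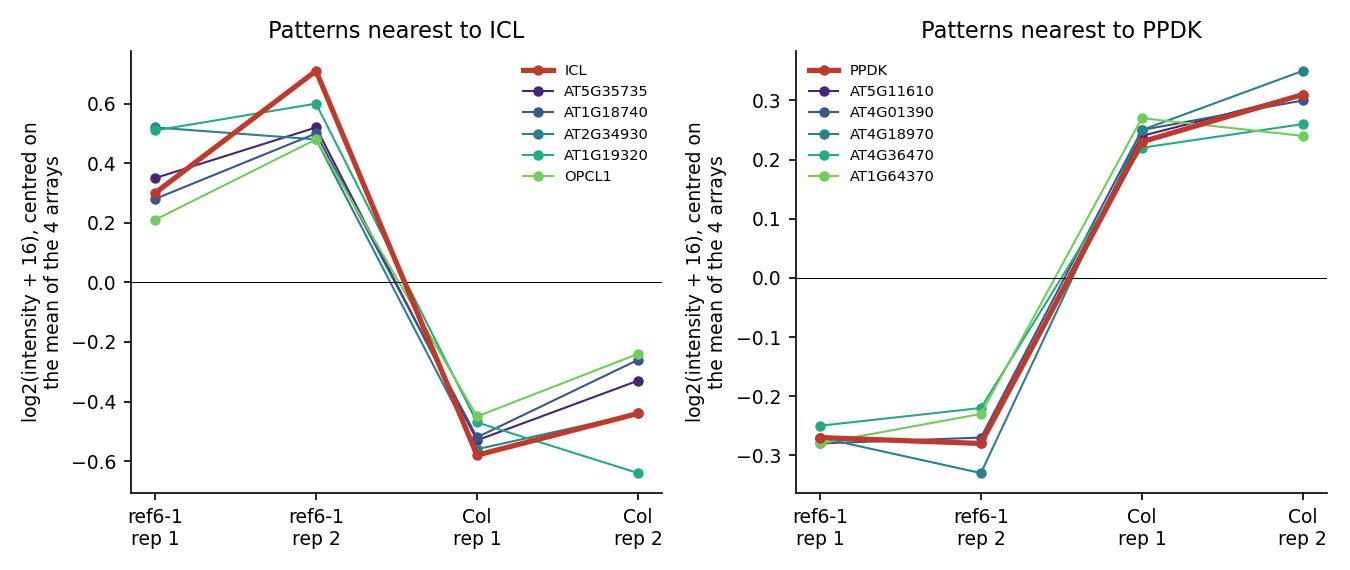
Centred log2(intensity + 16) on each array of ICL and PPDK (thick red) and of the 5 named transcripts nearest to each, ref6-1 arrays left of Col arrays. Lines join the values of 1 gene. Distances were 0.00656 to 0.0910 for the 5 near PPDK and 0.231 to 0.343 for the 5 near ICL. They are not scaled to the size of each gene's difference, so they are not compared.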

How the data were processed

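Biotin-labelled cRNA from 10 µg of Trizol-extracted RNA was hybridised to 4 ATH1 arrays, per the labels' protocols. The deposited values are linear intensities, 1 per probe set and array. The authors' summarization, background correction and normalization are not stated in the labels or files. Array medians lay between 143.1 and 146.6, and the lowest value on each was 1, held by 10 to 17 probe sets. Of 22810 probe sets, 64 controls were left out. Names came from the platform annotation by gene ID and the RefSeq table of TAIR10.1. It pairs 13513 probe sets with a single gene and 503 with several, and leaves 8730 out. A single list gene, JMJ13, was left out because symbol and locus disagreed.

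Values entered as log2(intensity + 16), a scale that compresses differences between low intensities. ref6-1 and Col were compared in limma 3.58.1 (R 4.3.3) by a two-sided test with an intensity trend. Adjustment was by Benjamini-Hochberg over 22746 probe sets at a threshold of 0.05. The array number limits precision. Members and lists were chosen with earlier results of these data known. Genes named are ICL, PPDK, measured members of their core pathways, the isocitrate dehydrogenases, up to 2 of each other list by smallest p plus any with an unadjusted p under 0.05, position neighbours, and the 5 nearest patterns. The isocitrate dehydrogenases, the criterion of unadjusted p and the position neighbours were added to that rule after the files had been opened. A locus with several probe sets is given by its brightest. Alternatives were quantile normalization, median centring, constants of 1 and 64, no dimmest 30%, a robust or untrended prior, the replicate number as a block, a log2 fold threshold of 0.6, and each array left out.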

Additional observations from a re-analysis of the deposited data

How the results depend on the processing

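ICL and PPDK kept their direction under every normalization, constant and left-out array tried, at 0.81 to 1.22 for ICL and -0.58 to -0.50 for PPDK when 1 array was left out. Since neither gene overlapped between the genotypes, no constant or left-out array could have reversed that direction. The count of 337 probe sets called was 273 to 533 when 1 array was left out (533 without Col replicate 2, of which 291 were among the 337). The replicate numbers mark no stated batch, and the difference of replicate 2 minus 1 correlated between the genotypes at 0.279 over probe sets. With the replicate block, ICL and PPDK stayed at 1.02 and -0.54, and 1636 of 22746 probe sets were called. Among them were 4 of 16 pathway genes (IVD, MCCA, MCCB and ETFQO, all lower). Of 43 added genes 2 were called (SWEET17 higher, SWEET1 lower), as were the neighbours IAGLU and AT3G21770. Nothing is read from these counts. The added lists, with 0 calls otherwise, had 0 to 1 when 1 array was left out (SWEET17 without ref6-1 replicate 2, ASPGB1 without Col replicate 2). For those lists the settings were added after the data had been seen.

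Some genes that never passed changed sign. After quantile normalization HPR was at 0.02, RCA at -0.01 and cICDH at 0.00, and after median centring HPR was at 0.00. When 1 array was left out, the ranges were -0.19 to 0.01 for AMY1, -0.18 to 0.01 for AT4G15520, -0.16 to 0.08 for ENOC, -0.06 to 0.20 for GAPC2, -0.04 to 0.04 for HPR, -0.03 to 0.09 for IDH-III, -0.11 to 0.04 for IDH-V, -0.06 to 0.09 for LHCB4.1, -0.21 to 0.19 for OLEO3, -0.03 to 0.18 for PDC2, -0.02 to 0.11 for SDP1, -0.04 to 0.05 for SGP2 and -0.10 to 0.03 for cICDH; the cause was not tested. Among the nearest patterns 5 genes moved by at least their own SD within genotypes, each with the constant of 64. They were AT2G34930, AT1G19320, AT5G11610, AT4G01390 and AT4G36470. All but AT2G34930 also moved with the constant of 1. AT5G11610 moved after quantile normalization too, to -0.51 from -0.55. The unstated background correction limits what dim probe sets can show.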
